A study of Equus caballus with 32 samples.

Results

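Tracheal wash (TW) libraries of 3 horses at rest were set against those of 13 others, also at rest. The aim was to ask what already differed in the airway at rest between racing seasons, ahead of the next training. The 3 came from horses 2, 3 and 10, the horses whose TW neutrophils lay above the accepted cytology limit after they had entered training (later High N horses). Their membership rests on that later cell count and on no RNA value. They make up 3 of the 16 libraries at rest and 3 of the 32 libraries of the series, and 14644 of the 21357 genes listed reached the mean log2 value of 3 needed for the comparison.

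The RNA of all cells in the wash was sequenced in 16 adult male Thoroughbred racehorses of the same yard and trainer, once at rest (T0) and once in training (T1), with 1 library per horse and time point. The later High N horses at T0 and the 13 other horses at T0 had spent about 2 months at rest on average, mostly at pasture. The High N horses at T1 and the others at T1 had trained for about 2.5 months on average and were stabled. Training therefore cannot be told apart from housing between the time points. The paper's text gives both times as averages with a spread, and none for a single horse. No horse showed clinical signs of respiratory disease, so High N is a cytology class and not a diagnosis. The paper's text gives no neutrophil percentage of single horses at T0. At T1 horses 2 and 3 also had the macrophages laden with blood pigment that mark exercise-induced pulmonary haemorrhage, and horse 10 did not. The cytology counted leukocytes alone, whereas the RNA came from every cell in the wash, shed epithelium included.

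Neutrophils are short-lived blood leukocytes that enter the airway lumen in response to chemokines and bacterial or dust-borne products, and their excess in the wash of a young or training racehorse is a hallmark of mild to moderate equine asthma. Suppressor of cytokine signaling 1 (SOCS1) is induced by interferons and other cytokines and blocks the JAK kinases that carry their signal, so it acts as a brake within the same cell. Serpin family E member 2 (SERPINE2, protease nexin-1) is a secreted inhibitor that captures thrombin, urokinase and plasmin outside the cell.

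Values are log2 levels as deposited, corrected for library size, with low levels shrunk toward the average of their gene. The paper's methods state a single sequencing depth per sample. The values hold no counts, so the depth reached by each library is unknown and differences of weakly expressed genes come out too small. The median over tested genes was 8.81 to 9.11 in the later High N libraries and 8.80 to 9.15 in the others. The first principal component took 64.5% of the variance at T0 and followed the mean of 24 ciliated epithelium markers (r = -0.98, Spearman rho = -0.97, across 16 libraries, which share those genes with the component). That mean was 8.50, 11.4 and 9.61 in later High N horses 2, 3 and 10, against 7.81 to 11.7 with a median of 10.3 in the other horses, so the 3 horses were spread over nearly the whole range. The 20 markers of airway macrophages, the main resident leukocyte of the wash, averaged 13.8, 12.7 and 13.8 in horses 2, 3 and 10, against 12.59 to 14.01 in the others. In such bulk samples fewer cells of a type and less RNA per cell cannot be told apart.

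No gene passed the test between the later High N horses and the others at rest once p-values were adjusted over all genes (0 of 14644, background 0%, limma with Benjamini-Hochberg adjustment). At an unadjusted p under 0.05 there were 493 genes (3.37% of those tested). An exact Wilcoxon test per gene could not pass here, since its smallest p with 3 of 16 horses is 0.00357, reached by 55 genes, and its smallest adjusted p was 0.951. Of the 493, 419 had the higher mean in the later High N horses (2.86% of all genes) and 74 the lower (0.505%). Over all genes the balance was the other way, with a higher mean in the later High N horses in 42.2% of genes and a median difference of -0.03. All 3 later High N values lay above all 13 others in 50 genes (0.341%) and below them in 5 genes (0.0341%). The count at unadjusted p depended on single libraries and was 885 without horse 3 and 313 without horse 10. Apart from a single gene at 0.284, the adjusted p was 0.904 to 0.906 in the 15 genes next in rank and at least 0.9999 in the remainder, so p-values of single genes below are unadjusted limma values unless called adjusted.

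The smallest adjusted p belonged to ENSECAG00000040065, a gene with no symbol or description in the table. Its log2 values were 7.43, 7.51 and 7.94 in later High N horses 2, 3 and 10, against 5.42 to 6.88 with a median of 5.78 in the others, with no overlap. The difference was 1.69 (SE 0.29, limma adjusted p = 0.284). Without horse 13, which held the highest of the 13 values, the difference was 1.77 and the adjusted p 0.0465, so that 1 gene passed in that fit. At T1 the 3 horses again lay above all others, at 7.70, 8.14 and 7.78 against 5.20 to 7.41, with a difference of 1.61 (adjusted p = 0.0919).

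SERPINE2 (ENSECAG00000016075) ranked second of all genes by p. Its log2 values at rest were 10.19, 10.58 and 10.87 in later High N horses 2, 3 and 10. In the other horses they ran from 7.93 to 9.87 with a median of 9.06. All 3 later High N horses were above every other horse, and horses 11 and 13 came closest from below. The difference was 1.54 on the log2 scale, a fold of 2.91 (SE of the log2 difference 0.31, limma p = 0.000123, adjusted p = 0.904). The exact permutation test over horses gave an unadjusted two-sided p of 0.00179, the smallest that the 560 ways of choosing 3 of 16 horses allow, which restates that the groups did not overlap. Leaving out each horse in turn gave differences of 1.38 to 1.72. With the ciliated marker mean as a covariate the difference was 1.51, and with ciliated, neutrophil and T cell marker means it was 1.18.

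In training the separation of SERPINE2 was not seen. The High N horses at T1 had 8.74, 9.85 and 9.93, against 8.38 to 9.74 with a median of 9.13 in the others, and 9 of the 13 others were above horse 2. The T1 difference was 0.48 (SE 0.30, limma p = 0.128). SERPINE2 was lower at T1 than at T0 in each of the 3 High N horses, while the mean of the others was nearly level. The test of the change in difference between time points, with the horse as block, gave -1.06 (SE 0.25, limma p = 0.00056), the smallest p of that test, which did not pass after adjustment. SERPINE2 stood out by its T0 values, which also enter this test. That choice favours a smaller difference at T1 than at rest.

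SERPINE2 was then set beside the serpin family and the plasminogen and thrombin systems. Of 30 tested members, 10 had a higher and 20 a lower mean in the later High N horses, and the median difference was -0.15, against -0.03 over all genes. This median was 0.20 without horse 2 and -0.37 without horse 3. Adjusted over all genes 0 passed, and at unadjusted p under 0.05 there were 2 higher and 1 lower (6.67% higher, against 2.86% of all genes). SERPINE2, already singled out above, was among the 2 higher, so its place there adds nothing new. PLAU, which encodes the plasminogen activator urokinase, a protease that SERPINE2 inhibits, was the other higher member, at 10.71, 10.80 and 11.17 against 9.61 to 10.94 in the others, where 3 of 13 horses lay above the lowest of the 3. Its difference was 0.74 (SE 0.23, limma p = 0.00598), and 0.22 with the 3 marker means as covariates. SERPINH1, a chaperone of collagen folding, had the lower mean, with a difference of -0.96 (SE 0.44, limma p = 0.0423). Its 3 values of 7.11, 7.12 and 7.15 lay within the range of 6.99 to 9.51 in the others. The receptor of urokinase, PLAUR, differed by 0.48 (SE 0.35, limma p = 0.182), with values of 13.56, 12.58 and 13.65 against 11.78 to 13.68.

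SOCS1 (ENSECAG00000026965) had log2 values of 8.38, 7.80 and 7.84 in later High N horses 2, 3 and 10 at rest. The other horses ranged from 6.55 to 7.79, with a median of 6.82. The groups did not overlap, but the margin was thin, since horse 12 at 7.79 almost reached horse 3. The difference was 1.08, a fold of 2.11 (SE of the log2 difference 0.24, limma p = 0.000296, adjusted p = 0.906). Leaving out each horse gave 0.89 to 1.18. The difference was 1.06 with the ciliated marker mean as covariate and 0.59 with the ciliated, neutrophil and T cell marker means.

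At T1 SOCS1 was 8.03, 9.18 and 8.91 in the High N horses, against 6.39 to 8.94 in the others, and 4 of the others lay above horse 2. The T1 difference of 0.88 (SE 0.38, limma p = 0.0312) and the change in difference of -0.20 (SE 0.44, limma p = 0.661) did not pass after adjustment. The other horses had a higher SOCS1 mean at T1 than at rest, as the lines by horse show.

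The 34 tested genes of JAK, STAT and SOCS signalling had a median difference of 0.07 (-0.01 without horse 10 and 0.17 without horse 3), and 2 were higher at unadjusted p under 0.05 (5.88%, against 2.86%), namely SOCS1 and STAT4, which relays interleukin 12 signals. SOCS1 was already singled out above, so its place among the 2 adds nothing new. STAT4 was 9.20, 9.54 and 9.76 against 8.14 to 9.66, a difference of 0.64 (SE 0.28, limma p = 0.0368). STAT5A, a mediator of growth factor and interleukin 2 signals, differed by 0.22 (SE 0.14, limma p = 0.125).

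**Figure D1:**
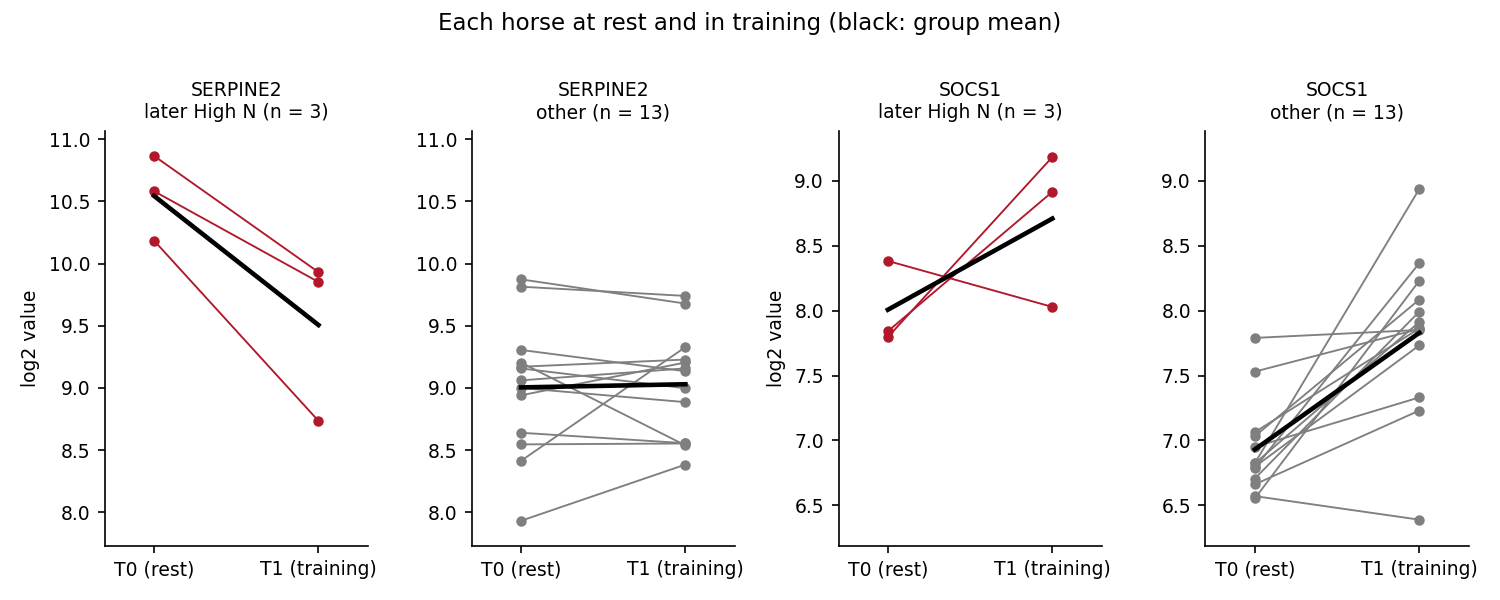
Log2 values of SERPINE2 and SOCS1 at T0 and T1, with 1 line per horse, the later High N horses left of the others for each gene, and group means in black. SERPINE2 runs down from T0 to T1 in all 3 High N horses, where T0 values are 10.19 to 10.87, and SOCS1 at T0 is 7.80 to 8.38 in the later High N horses against 6.55 to 7.79 in the others.

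Further genes among those with the smallest p and a higher mean in the later High N horses were MGAM, LCN9, IL22, BTBD19, TIAM2, PGS1 and HIP1R. MGAM, a starch-digesting enzyme that human neutrophils also carry, was 4.62, 5.17 and 5.27 in horses 2, 3 and 10, against 3.13 to 4.63 with a median of 3.60 in the others. Only horse 12 reached the lowest of the 3. The difference was 1.34 (SE 0.28, limma adjusted p = 0.906), and at T1 it was 1.49 with no overlap between groups (adjusted p = 0.148).

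Interleukin 22 (IL22), a lymphocyte cytokine that acts on epithelium, was 4.43, 5.74 and 4.45 in the later High N horses and 2.26 to 4.75 with a median of 2.98 in the others. Horse 12 alone lay within the range of the 3. The difference was 1.71 (SE 0.42, limma adjusted p = 0.906). It was 1.28 without horse 3, which held the highest value, 0.85 with the 3 marker means as covariates, and 1.02 at T1 (limma p = 0.0178).

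LCN9, a lipocalin, was 3.54, 4.44 and 4.68 against 2.57 to 3.62, a difference of 1.08 (SE 0.26, limma adjusted p = 0.906). That of LCN9 at T1 was -0.03. The remaining genes had smaller or partly overlapping differences. TIAM2, an activator of the small GTPase Rac, was 8.49, 8.70 and 9.26 against 7.06 to 8.68, with horse 13 highest of the others. PGS1, an enzyme on the path to the mitochondrial lipid cardiolipin, was 10.89, 10.84 and 10.93 against 10.10 to 10.83, which is a complete but narrow separation. BTBD19 was likewise separated, at 9.25, 8.66 and 8.97 against 7.84 to 8.61. HIP1R, which links clathrin coats to actin, was 12.75, 12.55 and 12.38 against 11.39 to 12.66, with horse 12 inside the range of the 3.

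**Figure D2:**
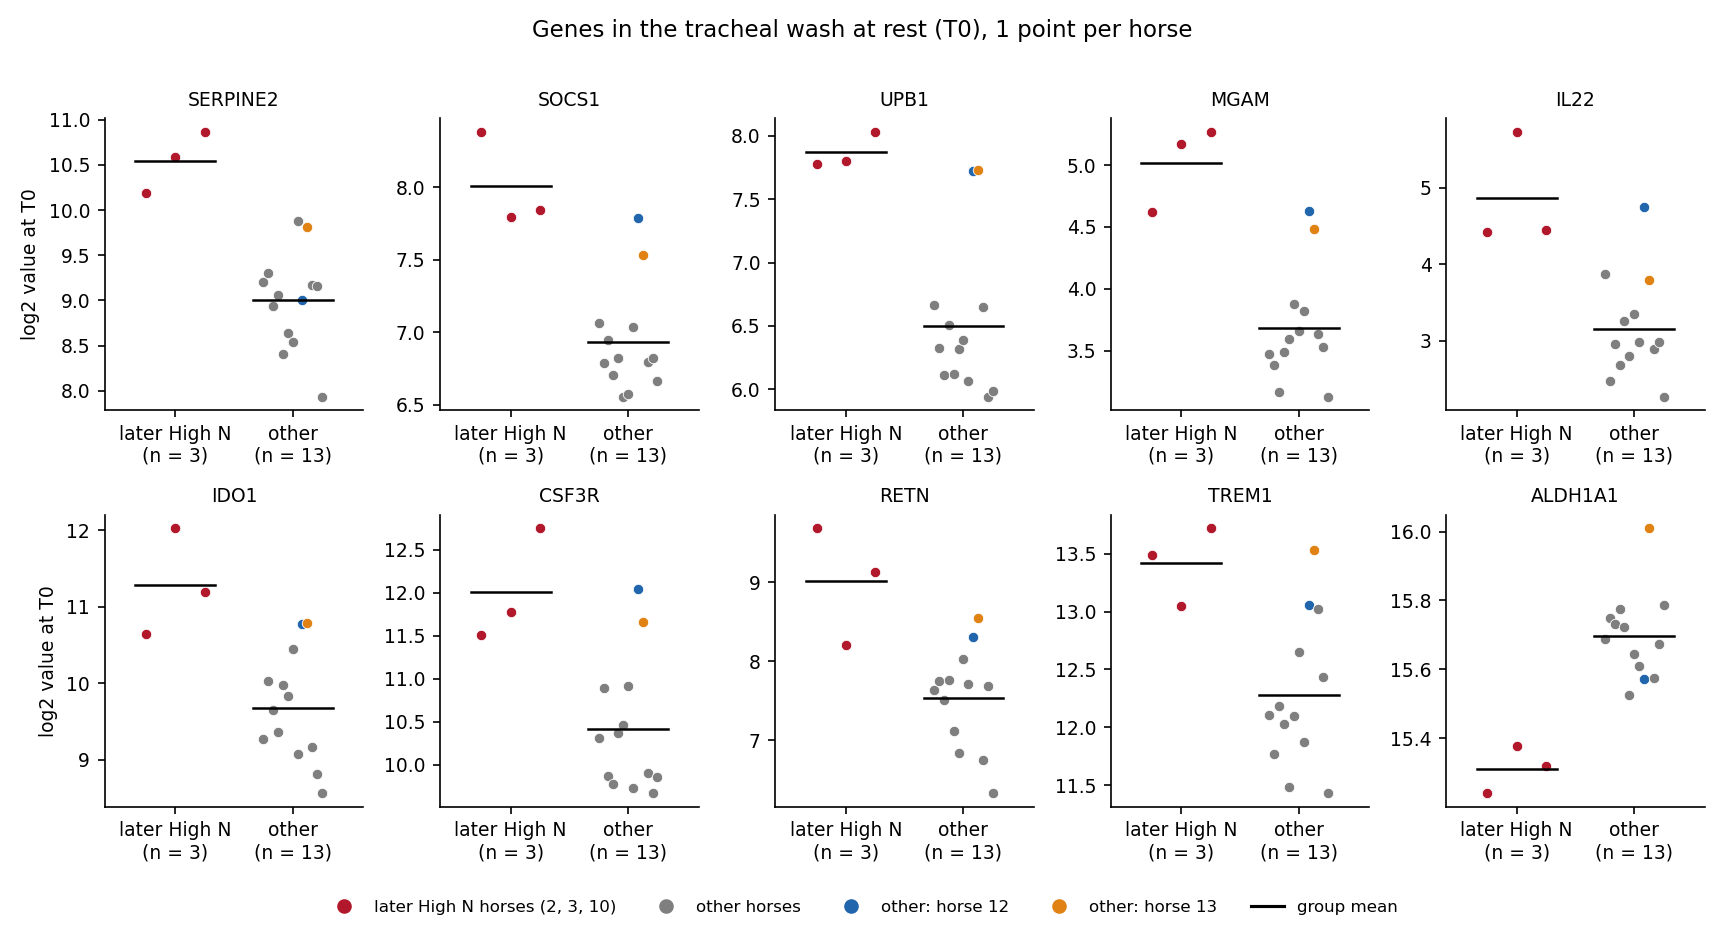
Log2 values at T0 of 10 genes, with 1 point per horse, the 3 later High N horses left and the 13 others right, and a bar at each group mean. Horses 12 (blue) and 13 (orange) lie at the top of the other horses for most genes, SERPINE2 at 10.19 to 10.87 against 7.93 to 9.87 shows no overlap, and ALDH1A1 at 15.24 to 15.38 against 15.53 to 16.01 is the gene with the lower mean.

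Genes with a lower mean in the later High N horses at unadjusted p under 0.05 were fewer, with a median difference of -0.46 against 0.67 for the 413 higher ones also tested at T1. Retinal dehydrogenase ALDH1A1, which makes retinoic acid and is among the most abundant transcripts here, was 15.24, 15.38 and 15.32 in horses 2, 3 and 10. It was 15.53 to 16.01 with a median of 15.69 in the others, so the groups did not overlap. The difference was -0.39 (SE 0.13, limma p = 0.00795), with a range of -0.42 to -0.35 when each horse was left out. At T1 it was -0.07, and the values of 15.89, 15.44 and 15.57 lay within the range of 15.23 to 16.14 in the others.

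TTC22 was also without overlap, at 9.40, 9.34 and 9.45 against 9.52 to 10.34, a difference of -0.45 (SE 0.15, limma p = 0.0075). PKIB, an inhibitor of protein kinase A, had the smallest p of the lower genes. It was 8.09, 9.52 and 8.80 against 9.10 to 9.89, and horse 3 lay within the range of the others. The difference was -0.81 (SE 0.22, limma p = 0.00178), and -0.45 without horse 2. UPK3A, a uroplakin known from urothelium, was 4.02, 4.90 and 6.16 against 5.30 to 7.88, a difference of -1.52 (SE 0.48, limma p = 0.00544). PLD4, a lysosomal nuclease of phagocytes and dendritic cells in mouse and human, was 11.06, 9.38 and 9.84 against 10.29 to 12.66, a difference of -1.32 (SE 0.42, limma p = 0.00615). KIAA2013, TMTC1, NMNAT3, VGLL4 and TYW3 completed the 10 and differed by -0.41, -0.46, -0.99, -0.30 and -0.39, with KIAA2013 at -0.25 without horse 3. Of these, NMNAT3 is an enzyme of NAD synthesis and VGLL4 a cofactor that competes with YAP.

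The comparison at T1 gave a set of genes that the libraries at rest had no part in choosing. At T1, 24 of 14630 genes passed (0.164%, limma, adjusted p under 0.05), 406 had an unadjusted p under 0.05 (2.78%), and all 24 were higher in the High N horses, by 1.42 to 2.41 on the log2 scale (median 1.88). The size of this set depended on single horses: it was 0 without horse 2, 2 without horse 3 and 12 without horse 10. Leaving out horses 5, 7, 8, 9, 11, 13 and 14 gave 10, 15, 14, 10, 11, 11 and 15 genes. In the libraries at rest, from the same horses, the mean of the later High N horses was higher for 24 of the 24 genes (42.2% of all genes), by 0.84 to 1.61 (median 1.17). All 24 had an unadjusted p under 0.05 at T0, against 2.86% of all genes in that direction, and 0 passed after adjustment. The groups overlapped at rest for 23 of the 24, with up to 4 of the 13 others above the lowest later High N horse. Leaving out each horse in turn moved the median difference at rest between 0.97 and 1.34. The study made the same T1 comparison with another method, DESeq2, and called more genes. CSF3R and ISG20 were among them and did not pass here. It also reported increased MUC5AC, whose T1 difference did not pass here.

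UPB1, the last enzyme of uracil and thymine breakdown, was the member of this set with no overlap at rest. It was 7.77, 7.80 and 8.03 in horses 2, 3 and 10, against 5.94 to 7.73 with a median of 6.33 in the others, where horses 12 and 13 stood well above the remaining 11. The difference was 1.37 (SE 0.34, limma adjusted p = 0.906) at rest and 1.62 at T1 (adjusted p = 0.0447). With the 3 marker means as covariates it was 0.57 at rest.

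IDO1, which breaks down tryptophan and is induced by interferon gamma, had the largest difference of the set at rest. Its values were 10.65, 12.03 and 11.19, against 8.56 to 10.78 with a median of 9.66, and 2 of the others lay above horse 2. The difference at rest was 1.61 (SE 0.42, limma p = 0.00146), against 1.95 at T1 (adjusted p = 0.0478).

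Resistin (RETN), a cysteine-rich peptide made by myeloid cells in human, was 9.69, 8.21 and 9.14 at rest, against 6.33 to 8.55 with a median of 7.68. Horses 2 and 10 were above all others and horse 3 below 2 of them. The difference was 1.48 (SE 0.39, limma p = 0.00165) and 1.42 at T1 (adjusted p = 0.0478), so it was of like size at both times. VSTM1, an inhibitory receptor of human granulocytes and monocytes, was 7.18, 6.67 and 7.18 against 4.41 to 6.86, a difference of 1.57 (SE 0.39) at rest and 1.61 at T1.

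TREM1, a receptor that amplifies inflammatory signals in neutrophils and monocytes, was 13.49, 13.05 and 13.72 at rest, against 11.43 to 13.53 with a median of 12.10. Horse 13 at 13.53 lay between the 3, and 2 of the others were above horse 3. The difference was 1.14 (SE 0.36, limma p = 0.00549), against 1.61 at T1 (adjusted p = 0.0186). IL18RAP, a subunit of the interleukin 18 receptor, was 8.42, 8.80 and 8.74 against 6.80 to 8.82, a difference of 1.23 (SE 0.37) at rest and 1.89 at T1. RIPOR2, which restrains RhoA in migrating neutrophils, was 10.13, 10.13 and 11.19 against 8.55 to 10.65, a difference of 1.24 at rest and 2.05 at T1.

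DGAT2, the last enzyme of triglyceride synthesis, and CHST15, which sulphates chondroitin, had among the smallest adjusted p at T1, with differences of 2.02 and 1.83. At rest they differed by 1.15 (SE 0.43) and 0.84 (SE 0.32), with CHST15 at 0.55 without horse 10. At rest DGAT2 was 9.66, 8.88 and 10.28 against 7.41 to 9.93, and 3 of the others lay above horse 3. RUBCNL, an autophagy enhancer, differed by 1.28 at rest and 2.22 at T1. ILT11B, an immunoglobulin-like transcript, differed by 1.09 at rest and 1.87 at T1. TGM3, a transglutaminase that crosslinks proteins, differed by 1.25 and 2.30, and by 0.81 at rest without horse 10. PDE4B, which degrades cyclic AMP in leukocytes, differed by 0.89 and 1.70, PLEK, a kinase substrate of platelets and leukocytes, by 0.90 and 1.61, and G0S2, an inhibitor of fat breakdown, by 0.84 and 1.52. ADAM19, a membrane metalloprotease, differed by 1.10 and 1.64. A gene that the table describes as C-X-C chemokine receptor type 2 (ENSECAG00000006711), the receptor through which neutrophils follow interleukin 8, was 9.84, 8.80 and 10.52 at rest, against 7.74 to 9.91, with 4 of the others above horse 3. It differed by 1.19 at rest (0.79 without horse 10) and 2.03 at T1. Of the 24, 17 had a symbol, and the 6 others without one differed at rest by 1.01 (ENSECAG00000032598, described as paired immunoglobulin-like type 2 receptor beta) to 1.35 (ENSECAG00000035315, without a description).

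**Figure D3:**
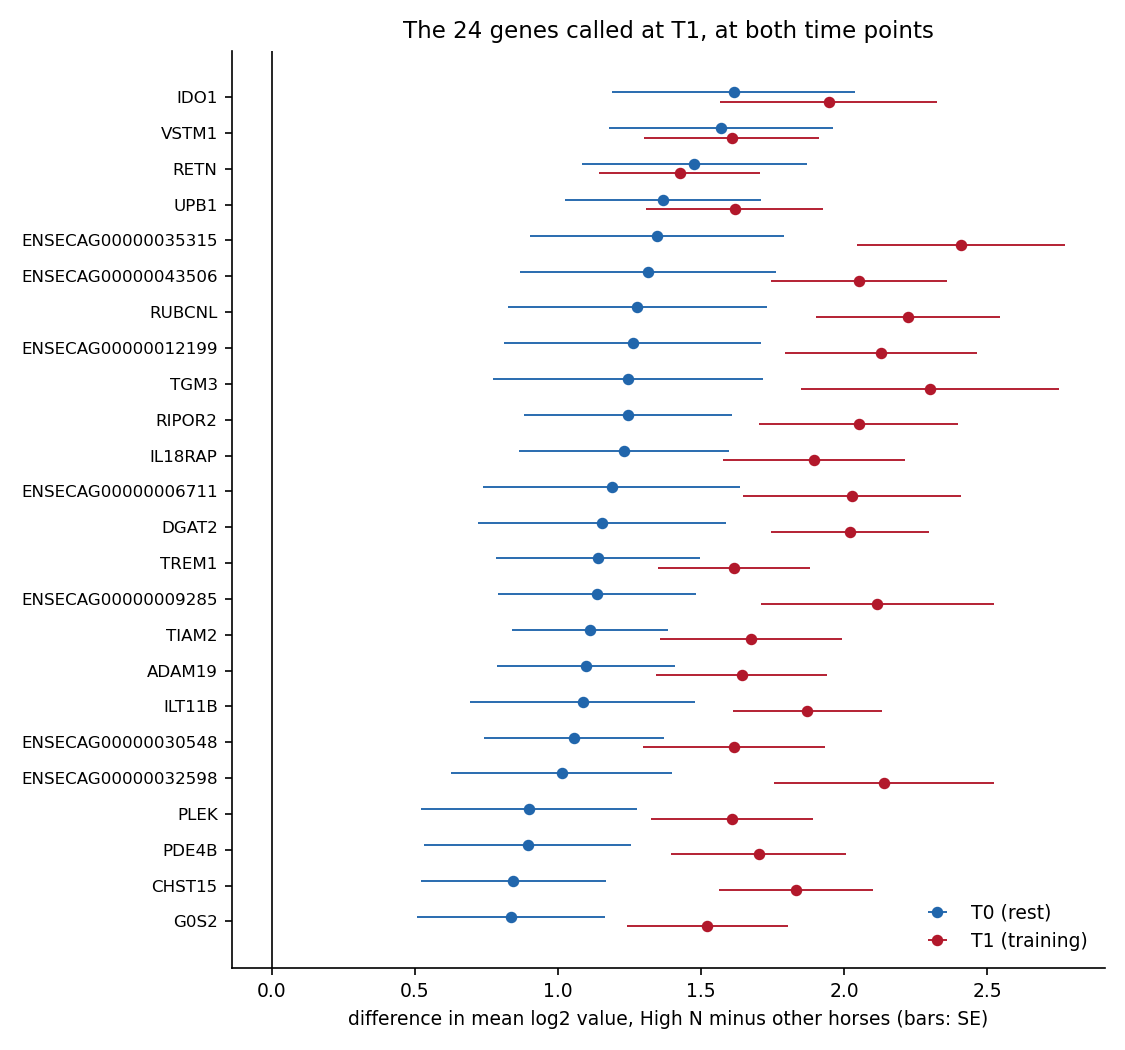
Difference in mean log2 value between the High N horses and the others for each of the 24 genes called at T1, at T0 (blue) and T1 (red), with bars for 1 SE. All 24 differences at rest are above 0, between 0.84 and 1.61, and 23 lie below the T1 difference, RETN being the exception. The 24 were chosen by their T1 values, which favours a larger difference at T1 than at rest.

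Horse 13 was the highest of the 13 other horses at rest for 20 of these 24 genes, and horse 12 for 2. Among the 419 genes with a higher mean and an unadjusted p under 0.05, horse 12 was highest of the others for 152 and horse 13 for 59, whereas over all genes they were highest for 887 and 1613 of 14644. The mean of 16 neutrophil markers at rest was 9.44, 9.70 and 9.65 in horses 2, 3 and 10, against 8.60 to 9.71 in the others, where horses 8, 12 and 13 lay above horse 2. Over the 24 genes horse 8 averaged 8.28, below the median of 8.38 in the 13 other horses. Horses 12 and 13 averaged 9.34 and 9.70 over the 24. TREM1 and RETN stand on both lists. With the ciliated, neutrophil and T cell marker means as covariates, the median difference of the 24 genes at rest was 0.59, against 1.17 without them, and with the ciliated mean alone it was 1.16.

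Genes set apart at rest were also followed into T1. Of the 419 genes with a higher mean and an unadjusted p under 0.05 at T0, 413 were tested at T1. There, 356 of them (86.2%) had a higher mean in the High N horses, against 49.0% of all genes, and 130 (31.5%) had an unadjusted p under 0.05, against 2.32%. The groups did not overlap at T1 for 59 of them (14.3%, against 0.595%). All 24 genes called at T1 were among the 419. Of the 74 lower genes, 53 (71.6%) had a lower mean at T1, and 2 had an unadjusted p under 0.05 (2.70%, against 0.458%), while none was without overlap below the others (0.0205% of all genes). Of the 50 genes whose later High N values were above all others at rest, 47 were tested at T1, 37 had a higher mean there and 3 were again without overlap. The median difference of those 47 was 0.59 at rest and 0.16 at T1. They were chosen by their T0 values, which favours a larger difference at rest. The horses are the same at both times, so T1 is a second wash of these 16 animals and not a second group of horses.

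A change of the difference itself between rest and training was sought in a fit of the 32 libraries that takes the horse as block. No gene passed (0 of 14643, background 0%), and 172 had an unadjusted p under 0.05 (1.17%). For the genes called at T1 the change in difference did not pass the test for any of the 24. The mean of DGAT2, for example, differed by 0.87 more at T1 than at T0 (limma p = 0.107). As the 24 were chosen on T1 values, a larger difference at T1 is favoured by that choice, in DGAT2 as in the others.

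Gene groups were then described by their counts and medians at rest, with no test of a group as a whole and beside the 2.86% of all genes higher at unadjusted p under 0.05. With the ciliated, neutrophil and T cell marker means as covariates, the median difference was 0.12 for cytotoxic lymphocyte markers, 0.01 for interferon gamma induced genes, -0.03 for the helper cell genes and -0.17 for the neutrophil-attracting genes, each lower than the median without covariates given with the group. Single genes were lower too, such as CD274 at 0.50, ISG20 at 0.41 and EOMES at 0.22. Adjusted over all genes, 0 members passed in any of the 22 groups. Neutrophil markers had 11 higher and 5 lower means among 16 tested, with a median difference of 0.40 (0.69 without horse 3) and 6 members at unadjusted p under 0.05, all higher (37.5%, against 2.86%). These were MGAM, RETN, CSF3R, TREM1, MMP25 and TNFAIP6. CSF3R, the receptor for the neutrophil growth factor G-CSF, was 11.51, 11.78 and 12.75 against 9.66 to 12.04 with a median of 10.31, and 2 of the others lay above horse 2. The difference was 1.59 (SE 0.44, limma p = 0.00234) and 1.81 at T1 (adjusted p = 0.238). S100A12, a calcium-binding alarmin of neutrophils and squamous cells, went the other way with values of 6.84, 8.50 and 7.59 against 7.39 to 12.2, a difference of -1.58 (SE 0.83, limma p = 0.0751).

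Lymphocyte markers had higher means as well. All 16 natural killer and cytotoxic lymphocyte markers had a higher mean in the later High N horses, with a median difference of 0.61 and 5 at unadjusted p under 0.05 (31.3%). They were TBX21, EOMES, PRF1, NCR3 and GNLY. TBX21, the transcription factor of type 1 lymphocytes, was 7.24, 8.13 and 7.12 against 5.70 to 7.77, a difference of 0.96 (SE 0.36, limma p = 0.0161). EOMES, a related factor of cytotoxic cells, was 6.95, 8.04 and 6.57 against 5.05 to 7.63, a difference of 1.05 (SE 0.39, limma p = 0.0163), and 0.63 (p = 0.171) without horse 3. Perforin (PRF1) differed by 0.73 (SE 0.32, limma p = 0.0333). In each of the 3 genes horse 12 was the highest of the other horses. The mean of the group was 7.69, 8.31 and 7.65 in horses 2, 3 and 10, against 6.59 to 8.52 in the others, of which 2 lay above horse 10.

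Of 20 T cell markers, 18 had a higher mean, with a median difference of 0.45 (0.23 without horse 3), and 5 were at unadjusted p under 0.05, all higher (25.0%). CTLA4, an inhibitory receptor of activated T cells, was 3.47, 4.89 and 3.80 against 2.38 to 3.73, a difference of 1.08 (SE 0.32, limma p = 0.00375). The mean of CTLA4 in the other horses lay just below the cut of 3, which it reached only through the later High N horses. Without horse 3 the difference of CTLA4 was 0.66 (p = 0.0687). The T cell kinase ZAP70 differed by 0.76 (SE 0.31), and CD27 and TRAT1 were also among the 5. The mean T cell marker level was 7.70, 8.35 and 8.04 in horses 2, 3 and 10, against 7.20 to 8.51, with 4 others above horse 2. B and plasma cell markers had 9 higher and 3 lower means of 12 and 0 at unadjusted p under 0.05. Their median of 0.41 was 0.97 without horse 2 and -0.15 without horse 10, which had a mean of 7.71 against 5.79 and 6.56 in horses 2 and 3.

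**Figure D4:**
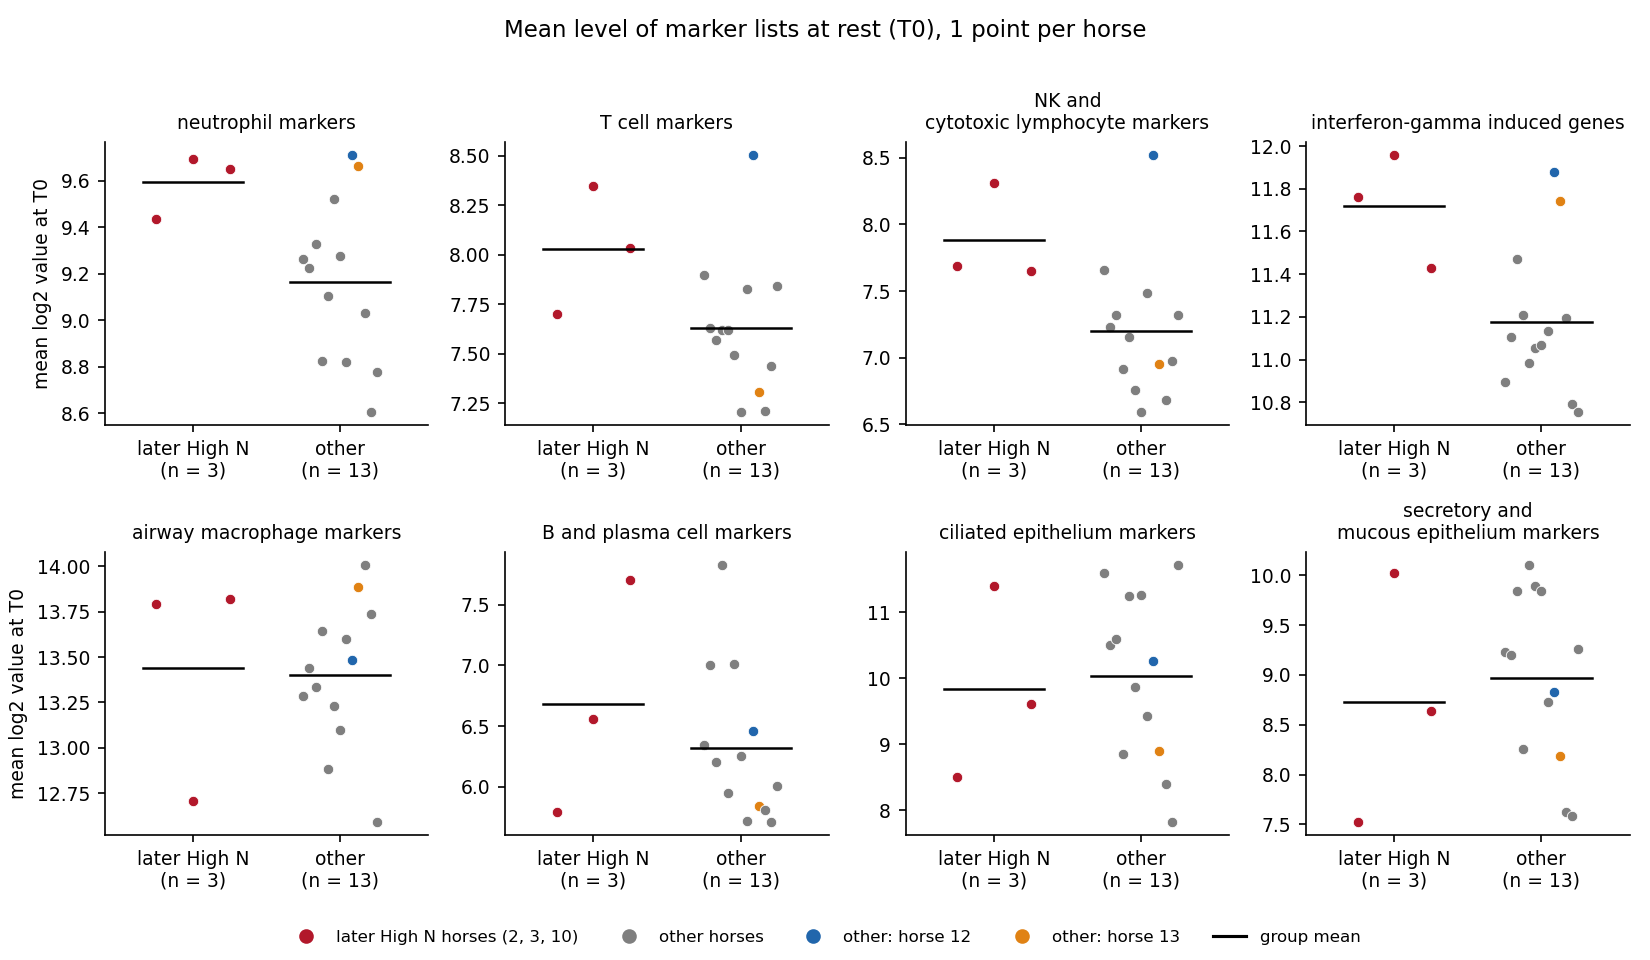
Mean log2 value of 8 gene groups at T0, with 1 point per horse, the later High N horses left of the others and a bar at each group mean. Neutrophil markers are 9.44 to 9.70 in the later High N horses and 8.60 to 9.71 in the others, with horses 8, 12 and 13 above the lowest later High N horse, while the ciliated means spread over nearly the same range in both groups.

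Genes of the type 1, 2 and 17 helper programmes included 24 tested members, 19 with a higher mean, and a median difference of 0.37. At unadjusted p under 0.05 there were 8, all higher (33.3%), namely IL22, IL18RAP, IL12RB2, CCL22, TBX21, CCR4, STAT4 and IL23R. IL12RB2, the inducible chain of the interleukin 12 receptor, was 5.55, 6.14 and 5.68 against 4.20 to 5.63, a difference of 0.88 (SE 0.29, limma p = 0.00705). These 8 come from more than a single helper type: TBX21, STAT4, IL12RB2 and IL18RAP serve type 1 responses, CCR4 and its ligand CCL22 are linked to type 2 and regulatory cells, and IL22 and IL23R to type 17 responses.

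Interferon gamma induced genes had 16 of 18 higher means and a median difference of 0.39. At unadjusted p under 0.05 there were 8, all higher (44.4%), and they were SOCS1, IDO1, CD274, BATF2, NLRC5, IRF1, GBP5 and WARS. SOCS1, already singled out above, is counted here again. CD274, the checkpoint ligand PD-L1, was 9.47, 10.33 and 9.19 against 7.62 to 9.55 with a median of 8.02, a difference of 1.33 (SE 0.38, limma p = 0.00285). Horse 12 was again the highest of the others. BATF2, a transcription factor of activated macrophages, was 9.66, 10.51 and 9.46 against 7.75 to 9.59, a difference of 1.07 (SE 0.36, limma p = 0.00932). The mean of the group was 11.76, 11.96 and 11.43 in horses 2, 3 and 10, against 10.75 to 11.88 in the others, of which 3 lay above horse 10.

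Type I interferon-stimulated genes, which answer mainly to interferon alpha and beta, had 32 of 37 higher means with a median of 0.17 (0.077 without horse 2 and 0.28 without horse 3). Of these, 4 were at unadjusted p under 0.05 (10.8%), namely ISG20, ISG15, OASL and DDX58. The exonuclease ISG20 was 8.64, 9.28 and 9.06 against 6.69 to 9.04, a difference of 1.29 (SE 0.39, limma p = 0.00423) and 1.55 at T1 (adjusted p = 0.0777). ISG15, a ubiquitin-like modifier, was 12.80, 12.05 and 11.97 against 10.92 to 12.82 with a median of 11.15, a difference of 0.91 (SE 0.31, limma p = 0.00905). The viral RNA response gene OASL differed by 0.69 (SE 0.26, limma p = 0.0185).

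Neutrophil-attracting chemokines and cytokines had 18 of 22 higher means and a median of 0.40, but 1 at unadjusted p under 0.05 (4.55%, against 2.86%). It was CSF2, the growth factor GM-CSF, at 5.38, 4.67 and 4.35 against 3.44 to 5.50, a difference of 0.77 (SE 0.34, limma p = 0.0394), and 0.48 (p = 0.244) without horse 2. The chemokines CXCL6 and CCL3 differed by 0.93 (SE 0.46) and 0.96 (SE 0.49), and 3 of the others lay above the lowest later High N horse in each. Without horse 3 the difference of CXCL6 was 0.53. NF-kappaB and early response genes had 25 of 29 higher means and a median of 0.30 (0.17 without horse 2 and 0.46 without horse 14), with 2 at unadjusted p under 0.05 (6.90%). These were the subunits NFKB1, with a difference of 0.66 (SE 0.24), and NFKB2, with 0.65 (SE 0.26). With the 3 marker means as covariates they differed by 0.23 and 0.14.

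In the other groups the median lay near that of all genes, and in all but the eosinophil and mast cell markers it turned sign when single horses were left out. Airway macrophage markers had a median of -0.07 (-0.32 without horse 10 and 0.35 without horse 3), with CHI3L1 (0.88, SE 0.33) and INHBA (1.69, SE 0.69) higher at unadjusted p under 0.05 among 20. INHBA was 0.90 (p = 0.246) without horse 3 and 0.34 with the 3 marker means as covariates. Cytosolic ribosomal proteins had a median of 0.01 over 53 (-0.061 without horse 2 and 0.13 without horse 3), and 0 at unadjusted p under 0.05. MHC class II genes had a median of -0.10 (0.060 without horse 2 and -0.15 without horse 3), with DRB (0.78, SE 0.31, and 0.51 with p = 0.170 without horse 3) higher and HLA-DMA (-0.43, SE 0.18) lower at unadjusted p under 0.05. Proliferation genes had a median of -0.12 (-0.30 without horse 10 and 0.33 without horse 3) and S100 and acute phase genes of -0.21 (0.017 without horse 2), with serum amyloid A1 (SAA1, 0.97, SE 0.44) the single one at unadjusted p under 0.05 in the 2 groups. Ciliated epithelium markers had 23 lower means of 24 but a median of only -0.19, which was -0.98 without horse 3 and 0.45 without horse 2. Secretory and mucous markers had a median of -0.13 (0.56 without horse 2, -0.95 without horse 3 and -1.19 with library quality weights), and of their 13 members 1 was at unadjusted p under 0.05, SLPI, an antiprotease of airway fluid, with 9.50, 9.32 and 9.55 against 8.03 to 9.35 (difference 0.67, SE 0.22, limma p = 0.00824). Squamous and basal markers had a median of -0.12 (0.021 without horse 2 and -0.53 without horse 3), erythroid genes of -0.02 over 4 (0.27 without horse 2 and -0.36 without horse 3) and eosinophil and mast cell markers of 0.12 over 6 (0.44 without horse 2 and 0.010 without horse 3). These 3 groups had at most 1 member at unadjusted p under 0.05.

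**Figure D5:**
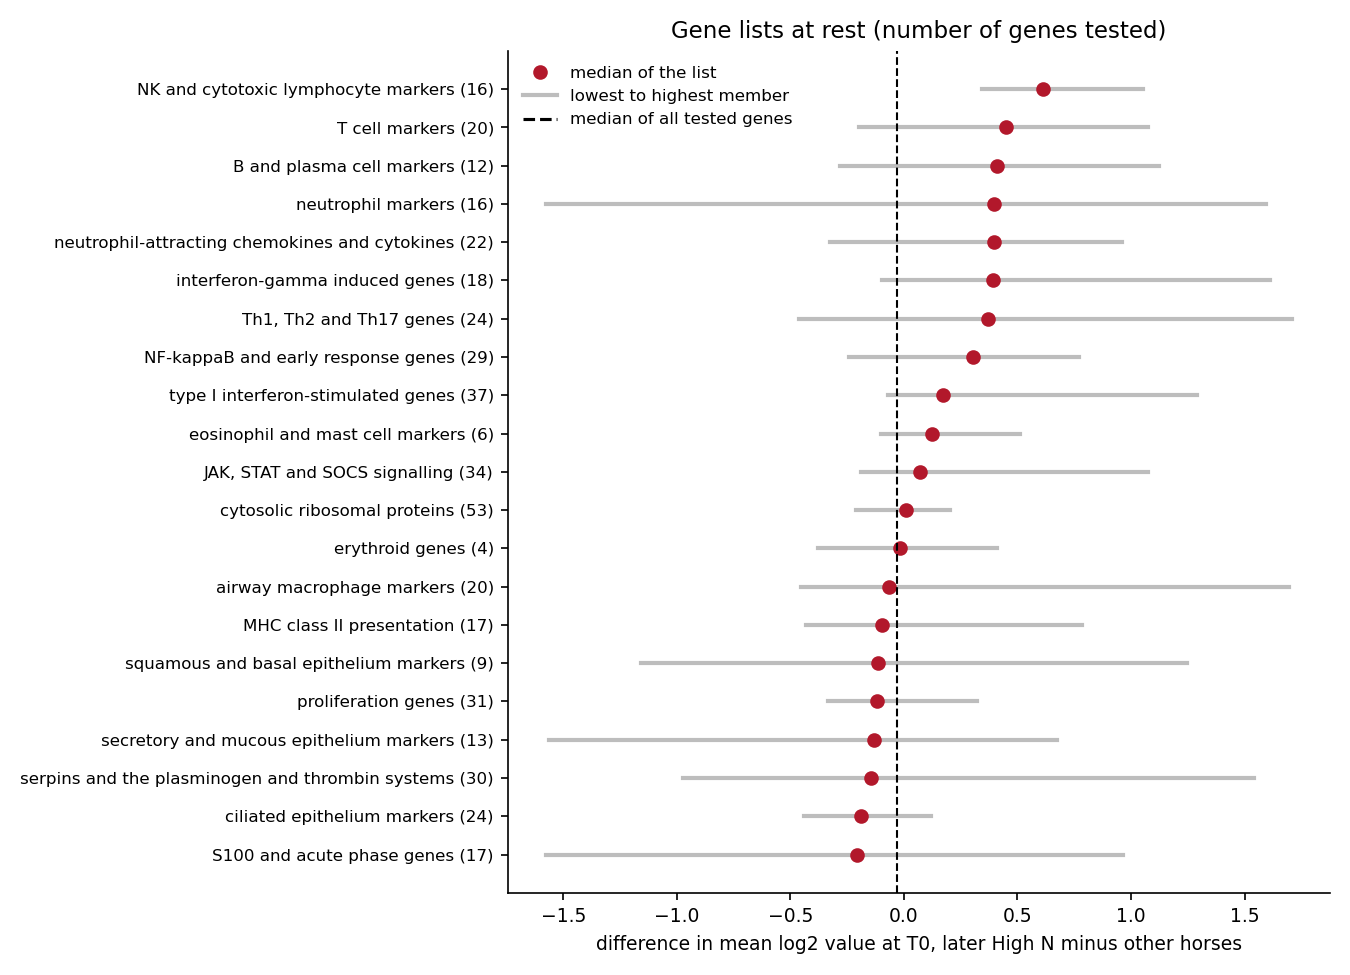
Median (point) and lowest to highest member (bar) of the log2 difference at T0, later High N minus other horses, for 21 gene groups with the number of genes tested. The medians run from -0.21 to 0.61, and the dashed line at -0.03 is the median of all tested genes. Most groups lie to its right, the lymphocyte, neutrophil and interferon gamma groups among them.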

How the data were processed

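Per the labels and the methods, the authors' steps were read trimming (cutadapt), quality reports (FastQC, MultiQC) and transcript quantification by kallisto 0.46.0.1 against EquCab3.0, summarised per gene. The deposited table, although named for raw counts, holds log2 levels that the authors corrected for library size and shrank at low expression, as judged from the values. The name of that transformation is not given in the sources used here. Counts were not used here, so depth and counting intervals are not given.

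The horses were grouped as in the study, by cytology at T1, since the labels give horse and time point only. The members, gene groups and named genes were chosen with earlier results of these data known. Genes named were SERPINE2 and SOCS1, the 10 with the smallest p and a symbol in each direction (as none passed), up to 3 per gene group, those the study named for High N and those called at T1. Group members at unadjusted p under 0.05 and the gene with the smallest adjusted p were named in addition. Some genes that the rule names are not reported here.

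limma 3.58.1 in R 4.3.3 (empirical Bayes with mean-variance trend) compared 3 with 13 horses at T0, and separately at T1, for genes whose mean level reached 3, with Benjamini-Hochberg adjustment at 0.05. All tests were two-sided. The change between time points was fitted to 32 libraries with the horse as block, since the same 16 animals, named in the labels, were sampled at both. The 2 libraries of a horse deviated from their group means with correlations of -0.68 to 0.76 (median 0.33), over 0.1 in 12 of 16 horses. Errors are standard errors (SE). SERPINE2 was also tested by exact permutation of horses. Within a time point each wash came from a separate horse, so p-values of the T0 and T1 comparisons measure the spread between horses. Those of the fit with the horse as block rest on the spread of the changes within horses. Alternatives covered filters, scaling, limma settings, marker covariates and leaving out each horse. Plots were made in Python 3.11.15 with matplotlib 3.10.9. Reference sequences were not used here.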

Additional observations from a re-analysis of the deposited data

How the results depend on the processing

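The absence of genes passing at T0 held under each filter, scaling, limma setting and marker covariate tried, and in 15 of the 16 fits that leave out a horse, with a range of 0 to 1 genes. In the fit on all 32 libraries with the horse as a random effect, 0 passed, and the smallest adjusted p was 0.0688. The count at unadjusted p under 0.05 was 811 with no minimum of the mean, 314 with a mean of at least 7, 1149 with the ciliated mean as covariate and 970 with 3 marker means. With library quality weights, 212 of the genes at unadjusted p under 0.05 were higher, against 419. The weights were lowest in later High N horses 10 (0.21) and 3 (0.35). They were 1.18 in horse 2 and 0.50 to 3.60 in the other horses. Leaving out each horse gave 0 to 33 genes at T1 and 0 to 1 for the change between time points, which was SAMHD1 without horse 3. Without the replicate block, that is with no pairing by horse, the change between time points gave 0 genes and 105 at unadjusted p under 0.05, against 0 and 172 with it. The median T0 difference of the 24 T1 genes was 0.59 with the 3 marker means as covariates, and 0.97 to 1.34 when each horse was left out.

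Some small differences changed sign. With quality weights these were MS4A1 (-0.13) and MS4A2 (-0.034), and with the 3 marker means CD38 (-0.11), FCER1A (-0.012), MS4A2 (-0.037), RELB (-0.0092), DDIT3 (-0.11) and PLAUR (-0.10). When each horse was left out, the range was -1.12 to 0.0055 for DRC1, -1.10 to 0.21 for TEKT2, -0.85 to 0.17 for CAPS, -1.49 to 0.021 for KRT4, -0.95 to 0.13 for HBA2, -1.71 to 0.017 for S100A14, -0.60 to 0.081 for PPARG, -0.027 to 0.44 for MS4A2, -0.0073 to 1.24 for MS4A1 and -0.76 to 0.032 for CENPF. The cause was not tested. The depth reached by each library is unknown, so what it limits cannot be given, and the precision rests on 3 horses.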

Other observations

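Several further genes without overlap at rest were picked out after their values were seen. FCER2, the low-affinity receptor for IgE, averaged 5.74 in the later High N horses and 4.67 in the others (difference 1.08, limma p = 0.00193). CD1B1, a lipid antigen presenting molecule, averaged 5.93 and 5.08 (difference 0.86, limma p = 0.00145), and TNFRSF8, the lymphocyte activation marker CD30, averaged 4.88 and 4.32 (difference 0.56, limma p = 0.00826). TNFRSF11A, the receptor RANK, was among the 5 with lower values, with means of 6.09 and 7.01 (difference -0.91, limma p = 0.0352).

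Mucin 5AC (MUC5AC), a gel-forming mucin of goblet cells, was 4.998, 8.605 and 6.445 at rest in the later High N horses, against 4.90 to 13.6 with a median of 7.002 in the others. The difference was -1.56 (SE 1.65, limma p = 0.357) at rest and 3.05 at T1 (p = 0.0108, adjusted p = 0.932). The change in difference of 4.61 (p = 0.0413) in the fit with the horse as block did not pass after adjustment.

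Of the 18 tested genes that the study named for High N horses on the T1 libraries, 17 had a higher mean at rest (42.2% of all genes), with a median difference of 1.10, and 14 were at unadjusted p under 0.05, all higher (77.8%, against 2.86%). MUC5AC was the exception to the higher means. The median was 0.44 with the ciliated, neutrophil and T cell marker means as covariates. CSF3R, RETN and TREM1 stand both among these genes and among the neutrophil markers, so they were in part adjusted for themselves. The list was chosen by the study on the same horses and overlaps with the 24 genes above, so it adds no independent evidence.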
